A study of Mus musculus with 8 samples.

Results

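The colony stimulating factors and the interleukin 6 family were measured as 10 genes in mouse peritoneal macrophages exposed to LECT2, a secreted protein whose full name is leukocyte cell-derived chemotaxin 2. The set held 6 ligands (Csf1, Csf2, Csf3, Il6, Lif and Osm) and 4 receptors (Csf1r, Csf2ra, Csf3r and Il6ra). Members were the probes whose accession is a RefSeq transcript of a listed gene, which gave 14 probes, all of them above the background filter. All 10 genes were tested among 26123 genes on the array, 16730 of which have a symbol.

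Macrophages from the mouse peritoneum were plated in low glucose DMEM with 20% serum and kept with LECT2 at 0.5 µg/ml (the low dose), at 5 µg/ml (the high dose) or at 0 µg/ml (the control). RNA was taken at 48 h or at an early time, which is 3.5 h by the sample titles, as used here, but 3 h by the labels of the channels. Each array set RNA of LECT2-treated cells, in the Cy3 dye, against RNA of control cells of the same time, in the Cy5 dye. The 4 groups (low dose 3.5 h, high dose 3.5 h, low dose 48 h and high dose 48 h) had 2 arrays each, from 2 independent experiments on different mice. Strain, age and sex of the mice, any allele they carried and the pooling of animals are not given in the sources used here. It is also not stated whether the low and the high dose arrays of one experiment and time carry the same control RNA.

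Colony stimulating factors are secreted proteins that drive the growth and survival of myeloid cells. Csf1 acts on macrophages through Csf1r, Csf2 (GM-CSF) acts on macrophages and granulocytes through Csf2ra and a shared beta chain, and Csf3 (G-CSF) acts mainly on neutrophils and their precursors through Csf3r. Interleukin 6, leukaemia inhibitory factor (Lif) and oncostatin M (Osm) signal through the shared chain Il6st. Apart from Csf1r, these receptors pass the signal on to JAK kinases and STAT transcription factors. Activated macrophages are a known source of several of these ligands, and transcription of Il6 and Csf3 is known to depend on NF-kB and C/EBP factors.

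The 250 bases before the annotated start are shown for 5 members with called changes. Il6, Lif and Csf2 rose together at 3.5 h. Il6ra was called lower at 3.5 h, and Csf1 was called lower at the high dose and 48 h. The sequences are from RefSeq, build GRCm38.p6, written 5′ to 3′ along the gene's strand, with matches to an NF-kB or an AP-1 motif in capitals. Il6 lies at chr5:30012864-30013113 on the plus strand, Lif at chr11:4257318-4257567 on the plus strand, Csf2 at chr11:54249900-54250149 on the minus strand, Csf1 at chr3:107760470-107760719 on the minus strand and Il6ra at chr3:89913197-89913446 on the minus strand.
Il6: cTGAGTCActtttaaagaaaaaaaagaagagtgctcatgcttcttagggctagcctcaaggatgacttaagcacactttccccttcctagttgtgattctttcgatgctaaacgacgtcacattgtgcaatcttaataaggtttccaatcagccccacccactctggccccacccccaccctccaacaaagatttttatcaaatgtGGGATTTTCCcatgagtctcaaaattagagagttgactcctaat
Lif: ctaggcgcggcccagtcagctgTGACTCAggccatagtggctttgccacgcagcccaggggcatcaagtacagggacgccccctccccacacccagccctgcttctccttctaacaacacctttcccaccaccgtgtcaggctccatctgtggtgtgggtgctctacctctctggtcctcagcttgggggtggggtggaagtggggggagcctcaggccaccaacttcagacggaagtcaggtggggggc
Csf2: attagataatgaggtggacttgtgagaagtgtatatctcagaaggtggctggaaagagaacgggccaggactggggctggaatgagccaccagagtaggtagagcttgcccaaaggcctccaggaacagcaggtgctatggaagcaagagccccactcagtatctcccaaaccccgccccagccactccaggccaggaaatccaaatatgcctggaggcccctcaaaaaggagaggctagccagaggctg
Csf1: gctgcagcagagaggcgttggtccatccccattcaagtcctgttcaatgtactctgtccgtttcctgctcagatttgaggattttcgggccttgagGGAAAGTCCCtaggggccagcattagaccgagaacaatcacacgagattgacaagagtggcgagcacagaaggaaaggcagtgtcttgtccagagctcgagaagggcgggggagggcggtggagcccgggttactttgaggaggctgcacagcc
Il6ra: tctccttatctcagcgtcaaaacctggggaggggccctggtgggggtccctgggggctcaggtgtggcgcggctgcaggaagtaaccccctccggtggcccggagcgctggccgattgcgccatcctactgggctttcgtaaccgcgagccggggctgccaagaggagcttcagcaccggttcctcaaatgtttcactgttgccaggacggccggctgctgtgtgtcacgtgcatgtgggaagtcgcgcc

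Promoters of 7 of the 10 members were searched, 4 of them ligands. Those of Csf3, Osm and Csf1r were not searched, so their motifs are unknown here. Member promoters on 1 chromosome were excluded from the search, but promoters there were kept in the shares below. Both strands of the 7 promoters were searched for 6 motifs: NF-kB (by name), AP-1 (TGANTCA), C/EBP (TTNCNNAA), CRE (TGACG), STAT (TTCNNNGAA) and PU.1 (GAGGAA). Among 32841 promoters of the same length, 3.9% held the NF-kB motif, 6.75% AP-1, 36.9% C/EBP, 17.8% CRE, 7.02% STAT and 23.3% PU.1. The Il6 window held an NF-kB match 44 to 35 bases before the start and an AP-1 match 249 to 243 bases before it, with a C/EBP match at 128 to 121 and a CRE match at 135 to 131 between them. The Lif window held 1 AP-1 match, 228 to 222 bases before the start, and the Csf2 window held 1 C/EBP match at 145 to 138 and neither NF-kB nor AP-1. The Csf1 window held an NF-kB match on the opposite strand, 154 to 145 bases before the start. In the Il6ra window there were C/EBP, CRE and PU.1 matches, of which a C/EBP match at 70 to 63 overlapped the PU.1 match at 70 to 65. These matches are descriptions of the letters and were not tested for binding.

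All 9 macrophage markers with a tested probe, among them Adgre1, Itgam and Mertk, were above background in both channels of every array. Of the spots that are not controls, 56.4% to 71.7% passed the background check in LECT2-treated cells and 63.6% to 82.3% in control cells. Ratios of the 2 arrays of a group correlated across genes at r between 0.352 and 0.721 (genes are not independent replicates). Precision is limited by the number of arrays, with a median standard error over genes of 0.28 (log2) for an effect of LECT2 and 0.40 for a difference between effects. The dyes were not swapped, so a dye effect and a LECT2 effect cannot be told apart for a single transcript. In 7 of the 8 columns of the deposited value table the best-fitting scanner file is one deposited with a different sample. Replicate 1 of the low dose at 3.5 h is matched by no file better than r = 0.782. Ratios below are those of the value table with the sign turned, as log2 of LECT2 over control, and channel signals are those of the best-fitting files. With the scanner files as they are recorded, 0 of the 10 members passed the test in every comparison. In that setting 0, 0 and 1 of all genes passed at the low dose and 3.5 h, the high dose and 3.5 h and the high dose and 48 h, and 0 for the difference between times at the high dose, so these counts are not particular to the members.

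Ligand transcripts were higher with LECT2 at 3.5 h. At the low dose Csf2, Csf3, Il6 and Lif rose and at the high dose Osm rose as well, while Csf1 did not follow them. In all, 4 of 10 members were called higher and 1 lower at the low dose and 3.5 h, where 4.88% of all genes were called (2.73% higher, 2.15% lower). In the high dose group of that time 5 members were called higher and 2 lower, against 21.9% of all genes (10.2% higher, 11.7% lower). A member is called where limma's moderated test, adjusted by Benjamini-Hochberg over all 26123 genes, gave an adjusted p below 0.05. The median effect of the 10 members was 1.04 at the low and 1.75 at the high dose, beside 0.00 and -0.03 for all genes tested. The share of all called genes that were higher was 56.0% at the low and 46.5% at the high dose in the value table, and 56.3% and 50.2% in the matched scanner files with normexp and loess. In those files with normexp and median centring it was 23.2% and 24.4%, and the median of all genes was -0.13 and -0.26. Without replicate 1 of the low dose at 3.5 h, 2 members stayed past the threshold there (Csf3 and Lif), and without replicate 1 of the high dose 3 did (Csf2, Csf3 and Lif). A fit on only the 2 arrays of the low dose at 3.5 h called 0 members (adjusted p = 0.189 for each of the 5) and 0 of all genes, with the same estimates. A lone array in the runs without a replicate is assumed to vary like the other groups.

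**Figure D1:**
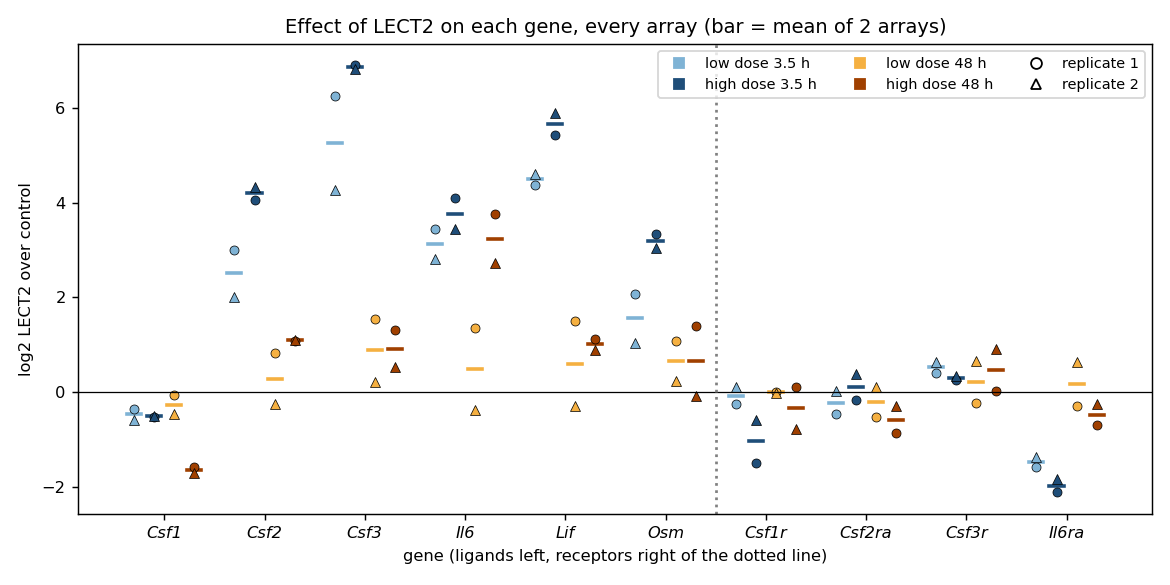
Log2 ratio of LECT2 over control of each of the 10 members on each of the 8 arrays, by group (points are single arrays, bars the mean of 2 arrays). Csf2, Csf3, Il6, Lif and Osm lie far above 0 at the high dose and 3.5 h, Il6ra lies at -2.11 and -1.83 there, and at the high dose and 48 h Il6 alone of the ligands stays near its early value.

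Csf3, the ligand that drives granulocyte production, had the largest mean effect of the set at 3.5 h at both doses. Its log2 ratio was 6.26 and 4.27 on the low dose arrays and 6.89 and 6.82 on the high dose arrays. All 4 values are above those at 48 h, which were 1.54 and 0.22 at the low dose and 1.30 and 0.53 at the high dose. The processed signal of Csf3 on the high dose arrays was 73010 in LECT2-treated against 482.3 in control cells in replicate 1, and 23700 against 184.4 in replicate 2. At the low dose and 3.5 h it was 5810 against 59.16 and 2109 against 93.94. The control channel was therefore dim but above background on all 4 early arrays, and it was not above background on 1 of the 2 arrays of the low dose at 48 h. Csf3 rose 38.4-fold at the low dose (5.26 ± 0.49 SE on the log2 scale, n = 2, adjusted p = 0.00356) and 116-fold at the high dose (6.86 ± 0.49, n = 2, adjusted p = 0.000577). The high dose estimate has a 95% interval from 5.71 to 8.0 and was the highest of all 26123 genes, with Csf3 ranking 4 at the low dose. The difference between Csf3 and Lif was not tested, and with the scanner files as they are recorded Il6 (2.96) and Lif (2.30) were above Csf3 (1.97) at the high dose. At 48 h the adjusted p was 0.609 at the low dose (0.88) and 0.259 at the high dose (0.92).

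Lif, a cytokine of the interleukin 6 family known for its effects on stem cells and on the acute phase response, had the next largest mean effect at 3.5 h. Its log2 ratio was 4.38 and 4.60 at the low dose, where replicate 2 lay above that of Csf3, and 5.42 and 5.88 at the high dose, so the high dose arrays lay above the low dose arrays without overlap. Its signal at the high dose was 7572 against 136.7 and 17340 against 245.3 in the control channel. Lif rose 22.5-fold at the low dose (4.49 ± 0.39 SE, n = 2, adjusted p = 0.00261) and 50.3-fold at the high dose (5.65 ± 0.39, n = 2, adjusted p = 0.000507), ranking 11 and 7 among all genes. The 48 h values were 1.5 and -0.29 at the low dose and 1.13 and 0.89 at the high dose. The 2 low dose arrays thus lay on opposite sides of the control, and neither group passed the test (adjusted p = 0.664 and 0.133).

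Csf2, which supports macrophage and granulocyte growth, was close to the background in control cells. Its signal there was between 28.62 and 111.4 on the 4 early arrays and was not above background on 1 of the 2 low dose arrays. With LECT2 it was 438.6 and 209.3 at the low dose and 2055 and 2651 at the high dose. The log2 ratio was 3.01 and 2.01 at the low dose and 4.06 and 4.34 at the high dose, which did not overlap. Csf2 rose 5.69-fold at the low dose (2.51 ± 0.33 SE, n = 2, adjusted p = 0.00951) and 18.4-fold at the high dose (4.20 ± 0.33, n = 2, adjusted p = 0.000701). At 48 h its log2 ratio was 0.82 and -0.24 at the low dose, where on each array 1 of the 2 channels was not above background, and 1.09 and 1.10 at the high dose. The last 2 values are close to each other, and the test gave an adjusted p of 0.0732. The Csf2 probe is printed on 10 spots of each array, and the ratios of these spots had a standard deviation of 0.148 to 0.681 within an array (median 0.338).

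Il6, the cytokine that drives the acute phase response and B cell maturation, was the member with called increases at both times. Its log2 ratio was 3.45 and 2.81 at the low dose and 4.09 and 3.44 at the high dose at 3.5 h, and 3.75 and 2.73 at the high dose at 48 h. These 3 pairs overlap, while the low dose at 48 h gave 1.36 and -0.37, below all of them. The Il6 signal at the high dose was 69400 against 3153 and 54940 against 3952 at 3.5 h, and 7463 against 554.2 and 15600 against 2349 at 48 h. Il6 rose 8.77-fold at the low dose and 3.5 h (3.13 ± 0.44 SE, n = 2, adjusted p = 0.0118) and 13.6-fold at the high dose and 3.5 h (3.77 ± 0.44, n = 2, adjusted p = 0.00225). At 48 h it rose 9.46-fold at the high dose (3.24 ± 0.44, n = 2, adjusted p = 0.0088), where it ranked 100 of 26123 genes, but not at the low dose (0.49, adjusted p = 0.77). The call at 48 h rests on both arrays: without replicate 1 the adjusted p was 0.109 and without replicate 2 it was 0.0733. The control cells on the early high dose arrays also had more Il6 than those on the early low dose arrays, at 11.11 and 11.53 against 9.80 and 10.51 on the log2 scale after scaling of the channels between arrays. Control Csf3 had the same order at 3.5 h, at 8.34 and 7.56 on the high dose arrays against 7.15 and 7.39 on the low dose arrays. Early control values of Csf1, Csf2, Lif and Osm overlapped between the doses. The part of these control differences in the ratios was not tested.

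Osm, an interleukin 6 family cytokine made by activated leukocytes, was called at the high dose and 3.5 h only among the comparisons with control. Its log2 ratio was 3.34 and 3.04 there, 2.08 and 1.04 at the low dose and 3.5 h, 1.08 and 0.24 at the low dose and 48 h, and 1.40 and -0.08 at the high dose and 48 h. The 2 high dose arrays at 3.5 h lay above all 6 others. Osm rose 9.14-fold at the high dose (3.19 ± 0.41 SE, n = 2, adjusted p = 0.00295), with a signal of 9648 against 868.9 and of 10190 against 1157. At the low dose and 3.5 h the effect was 1.56 ± 0.41 with an adjusted p of 0.0756, which passed the threshold under 5 of 12 alternative settings (adjusted p from 0.021 to 1.00).

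Csf1, the main survival factor of macrophages, was below the control on all 8 arrays. Its log2 ratio was -0.35 and -0.58 at the low dose and 3.5 h, -0.52 and -0.50 at the high dose and 3.5 h, -0.06 and -0.46 at the low dose and 48 h, and -1.58 and -1.71 at the high dose and 48 h. The 2 late high dose arrays lay apart from the other 6. Csf1 fell 3.12-fold there (-1.64 ± 0.21 SE, n = 2, adjusted p = 0.00733, 95% interval -2.13 to -1.15), with a signal of 1002 against 2992 and of 1562 against 5126. The call ended when either of the 2 arrays was left out (adjusted p = 0.0901 without replicate 1 and 0.0855 without replicate 2), although the estimate stayed at -1.71 and -1.58. In the other 3 groups the effect was -0.46, -0.51 and -0.26, with adjusted p of 0.25, 0.124 and 0.739. In the matched files with normexp and median centring, Csf1 passed the threshold in both early groups (adjusted p = 0.0478 and 0.00234).

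Csf1 has 3 probes, and the brightest, named by transcript NM_007778, gave the values above. That probe is printed on 10 spots, whose ratios had a standard deviation of 0.0209 to 0.116 within an array. The other 2 probes are both named by transcript NM_001113530 and are dim. The pair gave -1.12 and -1.31 on average at the high dose and 48 h, the same direction as the bright probe. At the low dose and 3.5 h they disagreed with it, at 0.80 and -0.02. The first of these averages rests on a value of 2.31 in replicate 1, where neither channel of the best-fitting file was above background. That file gave 25.61 in the LECT2 against 30.07 in the control channel, which is not a rise. The second dim probe was at 0.46 in replicate 1, where the same file gave 92.15 against 119.1, both above background.

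**Figure D2:**
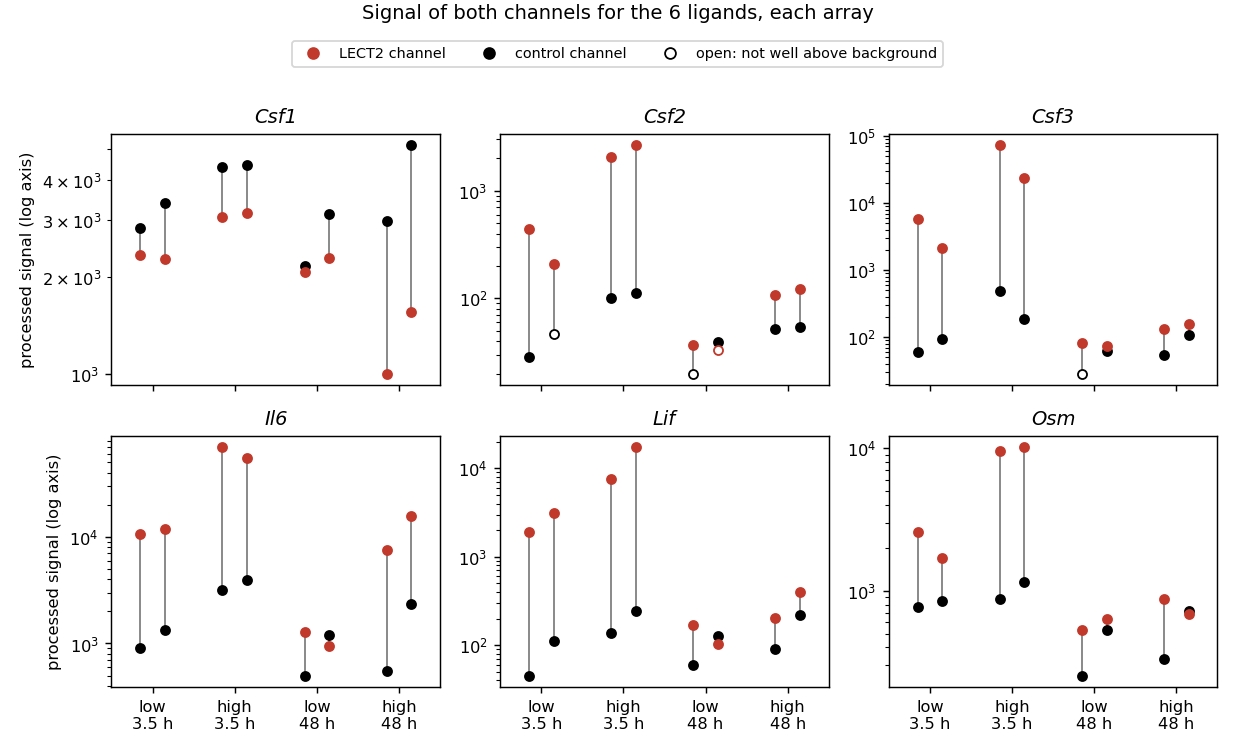
Processed signal of the 6 ligands in the LECT2 channel (Cy3) and the control channel (Cy5) of each array, in arbitrary units on a log axis, with a line joining the channels of 1 array and open points for a channel not above background. For Csf3 at the high dose and 3.5 h the lines climb from 482.3 to 73010 and from 184.4 to 23700, and Csf1 at the high dose and 48 h lies below its control on both arrays.

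Among the receptors, lower values alone were called in the value table, and at 3.5 h alone. In the matched files with normexp and median centring, where 8622 genes were called at the high dose and 48 h, Csf1r (-1.08), Csf2ra (-1.29) and Il6ra (-1.11) were also past the threshold there. Il6ra, the chain that binds interleukin 6, fell at both doses at 3.5 h, and Csf1r, the receptor of Csf1 and a defining macrophage gene, was called lower at the high dose. The other receptors, Csf2ra and Csf3r, were not called in any comparison of the value table. The median effect of the 4 receptors was -0.15 and -0.46 at 3.5 h and 0.09 and -0.40 at 48 h, at the low and the high dose in turn.

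The log2 ratio of Il6ra was -1.58 and -1.37 at the low dose and -2.11 and -1.83 at the high dose at 3.5 h. All 4 early arrays lay below the 4 late ones, which were -0.30 and 0.64 at the low dose and -0.69 and -0.24 at the high dose. Its signal at the high dose and 3.5 h was 1704 against 8523 and 1282 against 5411 in the control channel. Il6ra fell 2.77-fold at the low dose (-1.47 ± 0.28 SE, n = 2, adjusted p = 0.029) and 3.92-fold at the high dose (-1.97 ± 0.28, n = 2, adjusted p = 0.00382). The low dose call ended without replicate 1 (adjusted p = 0.211), without replicate 2 (0.0802) and with no filter on dim probes (0.0522), and the high dose call ended without replicate 1 (0.0645). At 48 h the adjusted p was 0.887 at the low dose and 0.301 at the high dose.

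Csf1r has 3 bright probes, and the brightest gave -1.49 and -0.58 at the high dose and 3.5 h. Its mean there was -1.03 ± 0.31 SE (n = 2, adjusted p = 0.0495), a 2.04-fold lower level at the edge of the threshold. The other 2 probes gave -0.49 and -0.19 on average, and 1 of them was above the control on 1 array, at 0.14. The call ended with the mean of the 3 probes (-0.57, adjusted p = 0.0937), with the processed signals of the matched files (0.0521), with no filter (0.0794), with the replicate number as a block (0.0596), with only the arrays of the group (0.0833), and without replicate 1 (0.407) or replicate 2 (0.065). Over the 12 alternatives it passed in 4, with adjusted p from 0.00199 to 0.817. In the other groups the brightest probe gave -0.25 and 0.10, 0.00 and 0.00, and 0.12 and -0.78, which straddle the control or lie on it.

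**Figure D3:**
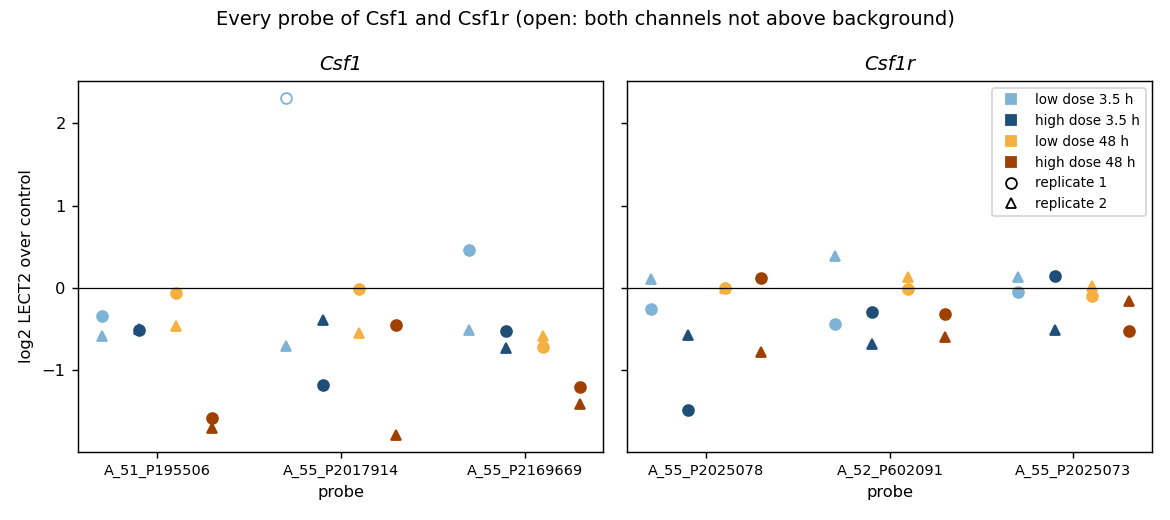
Log2 ratio of LECT2 over control for each of the 3 probes of Csf1 and of Csf1r on every array, coloured by group, with circles for replicate 1 and triangles for replicate 2 (an open symbol in a group's colour marks both channels not above background). All 3 Csf1 probes lie below 0 on both arrays of the high dose at 48 h, 1 dim Csf1 probe stands apart at 2.31, and the Csf1r probes spread from -1.49 to 0.14 at the high dose and 3.5 h.

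Csf2ra, the ligand-binding chain of the Csf2 receptor, stayed between -0.86 and 0.38 over the 8 arrays. Its largest effect was -0.58 at the high dose and 48 h (adjusted p = 0.214). Csf3r, the receptor of Csf3, was above the control on 7 of the 8 arrays, at 0.41 and 0.64, 0.27 and 0.34, -0.22 and 0.66, and 0.02 and 0.92 in the order of the groups above. Its largest effect was 0.52 ± 0.30 at the low dose and 3.5 h (adjusted p = 0.361), with a 95% interval from -0.17 to 1.22. At the high dose and 3.5 h, where its ligand Csf3 was at 6.86, it was at 0.30 (adjusted p = 0.504).

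On each array the median of the 6 ligands was set against the median of the 4 receptors. The ligand median exceeded the receptor median by 3.58 and 2.35 on the low dose arrays at 3.5 h and by 4.90 and 4.01 on the high dose arrays. At 48 h the difference was 1.47 and -0.63 at the low dose and 1.55 and 0.98 at the high dose. The ligands thus lay above the receptors on 7 of 8 arrays, and the early arrays lay above the late ones. Group means were 2.97 ± 0.87 (SD, n = 2), 4.46 ± 0.63, 0.42 ± 1.49 and 1.26 ± 0.41. With normexp and loess on the matched files the difference turned to -0.13 at the low dose and 48 h and became 0.59 at the high dose and 48 h. These differences describe the arrays and were not tested, since the members were chosen with results of these data known.

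**Figure D4:**
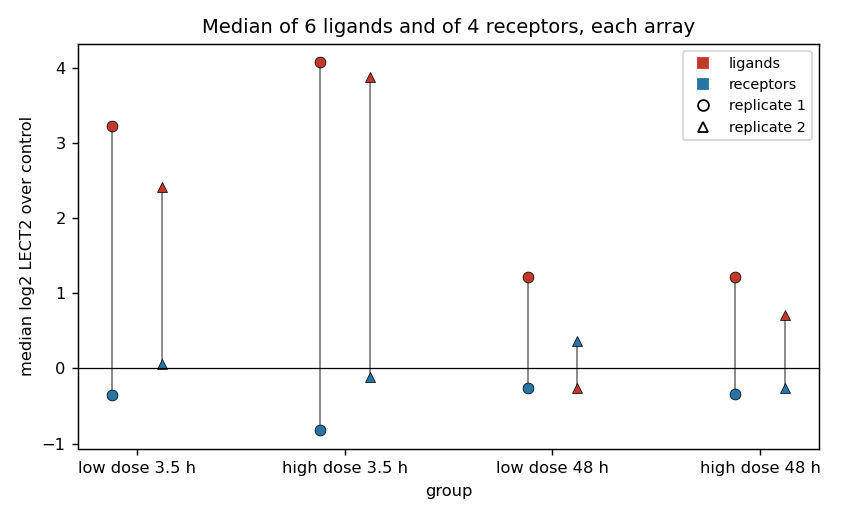
Median log2 ratio of LECT2 over control of the 6 ligands and of the 4 receptors on each of the 8 arrays, by group. The ligand median lies 4.90 and 4.01 above the receptor median on the high dose arrays at 3.5 h, and at -0.63 from it on 1 low dose array at 48 h.

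The order of the members also differed between the times. At the high dose and 3.5 h it ran from Csf3 and Lif through Csf2, Il6 and Osm to Csf3r, Csf2ra, Csf1, Csf1r and Il6ra. The gap between Csf2 and Il6 was 0.43, less than the sum of their standard errors of 0.33 and 0.44, while Osm stood 2.89 above the next gene, Csf3r. By 48 h Il6 was first, 2.15 above Csf2, and Csf2, Lif, Csf3, Osm and Csf3r followed with gaps of at most 0.26 between neighbours, none beyond their standard errors. Csf1 was last there, 1.07 below Csf2ra.

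By 48 h 0 of 10 members were called by limma at the low dose (0 at an unadjusted p below 0.05), where 0.172% of all genes were called (0.153% higher, 0.0191% lower). The 10 effects lay between -0.26 (Csf1) and 0.88 (Csf3). Over 12 alternative settings the effect there ranged from -0.37 to 4.06 for Il6 and from 0.01 to 3.83 for Csf3. For Lif it ranged from -0.29 to 2.82 and for Osm from 0.03 to 2.28. These 4 ligands were past the threshold in 0 of the 12 settings. The high dose at 48 h had 1 member called higher (Il6) and 1 lower (Csf1), where 11.2% of all genes were called (4.3% higher, 6.92% lower). The share of all called genes that were higher was 38.3% at the high and 88.9% at the low dose in the value table, 45.8% and 90.9% in the matched files with normexp and loess, and 21.0% and 33.8% with normexp and median centring. Csf2 and Lif had an unadjusted p below 0.05 at the high dose without passing the adjustment.

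The test of the difference between doses called 0 of 10 members at 3.5 h and 0 of 10 at 48 h, and 0% of all 26123 genes at either time (2046 and 2737 genes had an unadjusted p below 0.05). At 3.5 h the unadjusted p was below 0.05 for 2 members, Csf2 (high minus low 1.69 ± 0.47 SE, n = 2 per dose, adjusted p = 0.592) and Osm (1.63 ± 0.58, adjusted p = 0.598). For Csf3 the difference was 1.59, with a 95% interval from -0.03 to 3.22, and for Lif it was 1.16, from -0.12 to 2.44. At 48 h 2 members had an unadjusted p below 0.05: Il6, at 2.75 ± 0.63 (adjusted p = 0.276), and Csf1, at -1.38 ± 0.30 (adjusted p = 0.275). The intervals of these differences, 1.29 to 4.21 for Il6 and -2.07 to -0.69 for Csf1, are for single genes and are not adjusted for the number of genes.

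Between the times, LECT2's effect on 4 ligands was smaller at 48 h than at 3.5 h at the high dose. The test of the difference called 4 of 10 members, all lower at 48 h, where 8.31% of all genes were called (4.52% higher, 3.79% lower). The effect on Csf3 differed by -5.94 ± 0.70 SE (n = 2 per time, adjusted p = 0.0119), that on Lif by -4.64 ± 0.55 (adjusted p = 0.0119), that on Csf2 by -3.11 ± 0.47 (adjusted p = 0.017) and that on Osm by -2.54 ± 0.58 (adjusted p = 0.0415). Il6 did not share this: its difference was -0.52 ± 0.63 (adjusted p = 0.634), with a 95% interval from -1.98 to 0.93. Csf1, with -1.13 ± 0.30 (adjusted p = 0.0571), and Il6ra, with 1.5 ± 0.39 (adjusted p = 0.0555), lay just outside the threshold. With the scanner files as they are recorded the 4 differences had the opposite sign, at 1.34 for Csf3, 0.46 for Lif, 1.05 for Csf2 and 1.25 for Osm, and 0 genes were called. With no filter on dim probes the call of Osm ended (adjusted p = 0.0716). All 4 calls ended when any 1 of the 4 arrays was left out, with adjusted p from 0.0567 to 0.162, and the estimates stayed between -6.33 (Csf3) and -1.79 (Osm). In the matched files all 3.5 h arrays lie on slide 1 and all 48 h arrays on slide 2, so slide and time cannot be told apart in these differences.

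At the low dose the same test called 0 of 10 members (5 at an unadjusted p below 0.05), where 0.0995% of all genes were called (0.0153% higher, 0.0842% lower). The difference was -4.38 for Csf3 (adjusted p = 0.101), -3.88 for Lif (0.0859), -2.64 for Il6 (0.199), -2.22 for Csf2 and 1.64 for Il6ra (0.199). Of 10 other settings, not counting those that leave out an array, 6 called 1 to 3 members here, with Lif called in 5 and Csf3 in 4 of them. The control cells of the 2 times can be set side by side for each probe: the control Il6 signal ranged from 9.80 to 11.53 on the log2 scale at 3.5 h and from 9.37 to 10.88 at 48 h, which overlap. Control Osm was 9.23 to 9.75 at 3.5 h and 8.50 to 9.29 at 48 h, which overlap. Control Il6ra was 11.77 to 12.50 and 11.41 to 11.76, and control Csf1r was 15.08 to 15.34 and 14.62 to 15.05, both without overlap. How many of all genes lack overlap was not counted. Slide and time cannot be told apart for the control cells either, and arrays of one time may share control RNA.

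Other genes of the pathway were followed in lists chosen from textbook knowledge with results of these data known. The counts of these lists stand beside 4.88% of all genes called at the low dose and 3.5 h, 21.9% at the high dose and 3.5 h, 0.172% at the low dose and 48 h and 11.2% at the high dose and 48 h. Of 12 tested further ligands, 1 was called higher at the low dose and 3.5 h, 3 higher and 1 lower at the high dose and 3.5 h, 0 at the low dose and 48 h (limma, 1 at an unadjusted p below 0.05), and 1 higher at the high dose and 48 h. Il27, a subunit of a cytokine of the interleukin 12 type, rose by 3.46 ± 0.21 at the low dose (adjusted p = 0.0015) and by 4.95 ± 0.21 at the high dose (adjusted p = 0.000278) on the log2 scale. Its partner subunit Ebi3 rose by 1.20 at the high dose and Clcf1, an interleukin 6 family ligand, by 2.65, while Cntf, the ciliary neurotrophic factor, was called lower, with its LECT2 channel not well above background on either array. The gene called at the high dose and 48 h was Il11, another ligand that signals through Il6st, at 2.16 ± 0.22 (adjusted p = 0.00378). The list's median effect was 0.25 and 0.38 at 3.5 h and 0.13 and -0.07 at 48 h, at the low and the high dose. These lists' counts and medians are descriptions, and whether they differ from those of other genes was not tested.

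Of 13 further receptor chains, 1 was called lower at the low dose and 3.5 h, 1 higher and 1 lower at the high dose and 3.5 h, 0 at the low dose and 48 h (1 at an unadjusted p below 0.05), and 2 higher and 1 lower at the high dose and 48 h. Il6st, the signalling chain shared by Il6, Lif and Osm, was lower at both doses at 3.5 h, by -1.44 ± 0.26 (adjusted p = 0.0267) and -1.06 ± 0.26 (adjusted p = 0.0274). Lifr, the receptor of Lif, was higher by 0.69 at the high dose and 3.5 h (adjusted p = 0.0478), and its other 2 probes gave 0.75 and 3.1. Later, at the high dose and 48 h, Osmr, a receptor of Osm, rose by 1.85 ± 0.44 (adjusted p = 0.0397) and Csf2rb2, a beta chain related to the one shared with Csf2, by 1.11 ± 0.26 (adjusted p = 0.0359). A second probe of Csf2rb2 gave 0.46 in that group. Il27ra changed by -2.06 ± 0.32 there (adjusted p = 0.0121). The list's median effect was -0.25 and 0.13 at 3.5 h and 0.26 and 0.58 at 48 h, and its 3 calls of 13 at the high dose and 48 h and 2 of 13 at the high dose and 3.5 h stand beside 11.2% and 21.9% of all genes.

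Of 19 genes of JAK-STAT signalling and its feedback, 5 were called higher at the low dose and 3.5 h, 7 higher and 1 lower at the high dose and 3.5 h, 0 at the low dose and 48 h (5 at an unadjusted p below 0.05), and 5 higher and 3 lower at the high dose and 48 h. The feedback inhibitors Socs1, Socs3 and Cish were higher at both doses at 3.5 h and again at the high dose at 48 h. The low dose gave 2.63 for Socs1, 2.35 for Cish and 2.09 for the kinase Pim1. With the high dose Socs1 rose by 3.32, Cish by 3.23, Pim1 by 3.21 and Socs3 by 2.97, with adjusted p from 0.000888 to 0.00215. The 48 h values at the high dose were 2.23 for Socs1, 2.30 for Socs3 and 2.12 for Cish, and the kinase Jak2 was at 2.27. Jak2 had also risen at 3.5 h, by 2.16 at the low and 2.52 at the high dose. Cish at 48 h, Jak2 at the high dose and 3.5 h and Socs3 at the low dose are named after their values were seen. Called lower were Stat5b at the high dose and 3.5 h (-0.69) and the adaptors Grb2 (-1.27) and Sh2b3 (-0.95) at the high dose and 48 h. A second probe of Grb2 gave -0.68 in the latter group. Pias3, an inhibitor of STAT proteins, was also called lower at the high dose and 48 h, with its LECT2 channel not well above background on either array. Apart from Pim1, with a difference of -2.29 (adjusted p = 0.0259), 0 of the 19 differed between the times at the high dose (5 of the 19 at an unadjusted p below 0.05). Of all genes 8.31% were called in that comparison.

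Of 18 regulators of cytokine transcription and mRNA decay, 8 were called higher and 1 lower at the low dose and 3.5 h, and 13 higher and 1 lower at the high dose and 3.5 h. At 48 h 0 of 18 were called by limma at either dose (0 at the low and 2 at the high dose at an unadjusted p below 0.05). Nfkbiz, an IkB-like factor that promotes Il6 transcription, rose by 3.05 ± 0.38 at the low dose (adjusted p = 0.00841) and 3.54 ± 0.38 at the high dose (adjusted p = 0.00165). The high dose raised the NF-kB gene Nfkb1 by 2.16 and the AP-1 factors Junb and Batf by 2.30 and 2.06. With the low dose Cebpd, a C/EBP factor, rose by 1.97 and Nfkb1 by 1.88. The NF-kB gene Rel was also called higher at the low dose, with its control channel not well above background on either array. Zfp36l1, which promotes the decay of AU-rich mRNA, was lower, by -1.66 at the low and -1.33 at the high dose. Zc3h12a, also a regulator of mRNA decay, was called higher, by 1.01 at the low and 1.64 at the high dose. Zfp36, another such regulator, was called higher at the high dose (1.04) but not at the low dose (-0.16). These 2 genes are named after their values were seen. The list's median effect was 1.08 at the low and 1.32 at the high dose at 3.5 h, and 0.08 and 0.05 at 48 h, beside medians between -0.03 and 0.02 for all genes. Between the times at the high dose 10 of the 18 differed, all 10 lower at 48 h, where 8.31% of all genes were called (3.79% lower).

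Of 4 genes of receptor shedding, the cleavage that frees the outer part of Il6ra and Csf1r from the cell, Rhbdf2, a partner of the protease Adam17, was called higher at 3.5 h, by 1.02 at the low and 1.51 at the high dose. The proteases themselves were lower at the high dose and 3.5 h, Adam17 by -0.99 ± 0.25 (adjusted p = 0.0311) and Adam10 by -0.93 ± 0.22 (adjusted p = 0.0244). By 48 h Adam10 was higher at the high dose, by 0.98 ± 0.22 (adjusted p = 0.0333).

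**Figure D5:**
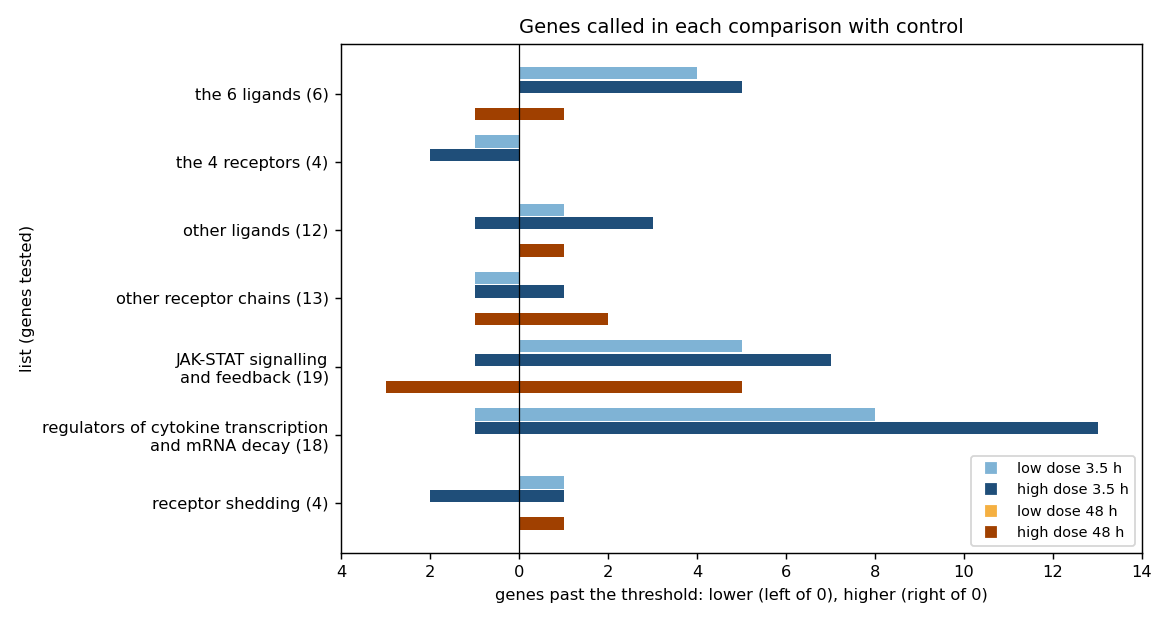
Number of genes called with LECT2 among the 6 ligands, the 4 receptors and each pathway list, for the 4 comparisons with control (bars right of 0 are higher, left of 0 lower). Of the 18 regulators of cytokine transcription and mRNA decay 13 were called higher at the high dose and 3.5 h and 0 at 48 h, while the JAK-STAT list had 5 called higher at the high dose and 48 h.

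For each member the genes with the nearest profile were sought, by the root mean square difference of the log2 ratio over the 8 arrays. Nearest to Csf3 were Tnf (0.78), Il1a (0.88) and Il23a (0.92), and nearest to Lif were Tnf (0.68), Il23a (0.72) and Riok2 (0.84). Nearest to Il6 were Tnfsf9 (0.49), Traf1 (0.51) and Fpr-rs3 (0.63), to Osm Csrnp1 (0.33), Mt2 (0.35) and Abtb2 (0.41), and to Csf2 Sdc4 (0.53), Nxph3 (0.54) and Slc39a14 (0.56). Among the members that were lower, Il6ra was nearest to Tarsl2 (0.30), Mknk2 (0.30) and Sash3 (0.30), and Csf1 to Naa10 (0.20), Drg2 (0.20) and Tuba4a (0.21). The distances are smaller for members with small effects, so they cannot be ranked across members.

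Cells other than macrophages can also express these ligands and receptors, and in RNA of a whole culture fewer cells of a type and less RNA per cell cannot be told apart. Genes of the cell type lists are named here after their values were seen, and their counts stand beside the shares of all genes called given for the pathway lists (4.88%, 21.9%, 0.172% and 11.2%). Of 10 tested markers of mesothelium and fibroblasts, Wt1 and Pdgfra were lower at both doses at 3.5 h and at the high dose at 48 h, with Pdgfra at -3.51 ± 0.27 in the last (adjusted p = 0.00228), and the median of the list was between -1.12 and -0.78. The summed signal of that list at the high dose and 48 h was 50170 and 53150 with LECT2 and 58650 and 109000 in control cells, and at the high dose and 3.5 h it was 21900 and 23620 against 20980 and 60280. At least 6 of its 10 markers were above background in each channel of every array.

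Of 8 tested neutrophil markers, Camp was higher at the high dose and 3.5 h (1.31, adjusted p = 0.0197) and S100a8 at the high dose and 48 h (2.99, adjusted p = 0.0057). Their summed signal at the high dose and 3.5 h was 4688 and 5703 with LECT2 against 2932 and 3027 in control cells. The median effect of the list was 0.31 at the high dose and 3.5 h and -0.21 at the high dose and 48 h, where its lowest marker was at -1.55. The defining neutrophil markers Ltf, Ngp and S100a9 were above background on 2, 3 and 4 of the 8 arrays. Of 9 tested T and NK cell markers 3 (Cd247, Nkg7 and Gzma) were higher at the high dose and 3.5 h, 1 (Cd247) at the low dose and 3.5 h, and 2 (Cd3g and Gzma) at the high dose and 48 h. The low dose at 48 h had 0 of the 9 called by limma, with 6 at an unadjusted p below 0.05. The median effect of that list was 0.79 and 0.63 at 3.5 h and 0.80 and 0.56 at 48 h, at the low and the high dose. The summed signal of that list at the high dose and 3.5 h was 12200 and 12360 against 6948 and 7750. Of 6 B cell markers Cr2 was higher at the high dose and 3.5 h, and of 6 tested mast cell markers limma called 0 in the 4 comparisons with control (1 at an unadjusted p below 0.05, at the low dose and 48 h).

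Of 6 dendritic cell markers Zbtb46, Xcr1 and Ccr7 were higher and Clec9a, with its LECT2 channel not well above background on either array, lower at the high dose and 3.5 h, Zbtb46 was higher at the low dose and 3.5 h, and Ccr7 was higher and Itgax lower at the high dose and 48 h. Zbtb46 has a second, dimmer probe, which gave -0.30 at the high dose and 3.5 h, where the probe used gave 3.31. Among the macrophage markers besides Csf1r, Lyz2 was lower (-2.01) and Cd14 higher (2.77) at the high dose and 3.5 h, Gata6 was lower (-1.03) and Timd4 higher (1.11) at the low dose and 3.5 h, and Gata6 was lower (-1.35) at the high dose and 48 h. The part of all these cell type lists in the results for the ligands and receptors was not tested.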

How the data were processed

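RNA of LECT2-treated and control peritoneal macrophages was compared on 8 2-colour arrays. Per the file headers and the submitters' processing notes the arrays were read with Agilent Feature Extraction 10.7.3.1. Per the file headers the scanner files hold intensity per channel, background-subtracted and dye-normalised by that software, and a log10 ratio, with Cy5 as numerator. The deposited value table holds log2 values whose making is not stated. Set against the scanner files, the 48 h columns matched a file's ratio within 0.01 for 86.4% to 88.4% of probes, so its values are taken as log2 of Cy5 (control) over Cy3 (LECT2), and its sign was turned. The direction of the 3.5 h columns follows from files matched at r = 0.782 to 0.994. Column medians of the turned values lay between -0.08 and 0.22, and the lowest correlation between columns was 0.129.

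Probes that 1 channel or both showed well above background were kept if this held for 2 or more of the 8 arrays, with the brightest probe per gene, named by RefSeq accession (26411 of 39429 probes). Group means and their differences were tested with limma 3.58.1 in R 4.3.3 (data.table version 1.17.8), with moderated variance on 4 residual degrees of freedom, and tested on simulated data. Channel levels came from normexp (offset 50), loess and Aquantile scaling of the matched files. All members are described, with up to 4 called genes per list and direction and the 3 nearest profiles. A gene that the rule selects is left out of the text, as are the nearest profiles of Csf1r, Csf2ra and Csf3r. The members and lists were chosen with earlier results of these data known. Alternatives were other sources of the ratios, scalings, filters, variance models, probe rules, a replicate block and leaving out each array.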

Additional observations from a re-analysis of the deposited data

Results flagged for a closer look

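The effects of LECT2 at the high dose differed between 48 h and 3.5 h, by the test of the difference itself, for Csf2 (-3.11), Csf3 (-5.94), Lif (-4.64) and Osm (-2.54), in log2 units with limma's adjusted p of 0.017, 0.0119, 0.0119 and 0.0415. All 4 were nearer to the control at 48 h. With the scanner files as they are recorded the differences were 1.05, 1.34, 0.46 and 1.25, and 0 genes were called; with no filter on dim probes the adjusted p for Osm was 0.0716. Slide and time cannot be told apart in the matched files.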

How the results depend on the processing

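Among values of single members under alternative settings, 950 kept their side of the threshold with no called value changing sign, 55 lost a call, 31 gained one and 4 changed sign. The scanner files as recorded gave 0 members called at the low and high dose at 3.5 h, at the high dose at 48 h and for the difference between times at the high dose, and turned that difference to 1.05 for Csf2, 1.34 for Csf3, 0.46 for Lif and 1.25 for Osm. The difference between times at the low dose, with 0 members called, gave 1 with the processed signals, 3 with normexp and loess, 3 with normexp and median centring, 1 with the filter on all 8 arrays and 2 with trended robust variance. The matched files with normexp and median centring gave 5 members called at the high dose and 48 h in place of 2, adding Csf1r, Csf2ra and Il6ra, with 8622 of 26123 genes called in place of 2931, and the median of all genes was -0.13, -0.26, -0.14 and -0.24 in the 4 groups. A fit on only the arrays of the group gave 0 members and 0 of all genes at the low dose and 3.5 h. Normexp and loess turned the ligand minus receptor median to -0.13 at the low dose and 48 h and moved it to 0.59 at the high dose and 48 h. The cause of these changes was not tested.

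Leaving out 1 array in turn gave 2 to 4 members called at the low dose and 3.5 h, 3 to 6 at the high dose and 3.5 h, 0 to 0 at the low dose and 48 h, 0 to 0 at the high dose and 48 h, 0 to 0 for both dose differences, 0 to 1 for the difference between times at the low dose and 0 to 0 at the high dose. Deviations of same-numbered arrays from their group means correlated at r from -0.06 to 0.47. The highest value was between the low and the high dose at 48 h. The main fit did not take the numbers as pairs, also for the difference between doses at 48 h, and the replicate block is the alternative that does. The replicate block gave 1 member called for the difference between times at the low dose (Csf3, adjusted p = 0.0468), added Osm at the low dose and 3.5 h (0.021) and Il6ra for the difference between times at the high dose (0.0372), and ended the call of Csf1r (0.0596). Probes near background, such as Csf2 and Csf3 in control cells, limit the size of their ratios.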
